A study of Mus musculus with 8 samples.

Results

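Sorted distal convoluted tubules (DCT) from mouse kidney were compared here by how much proximal tubule RNA they carried. The 4 arrays with the higher mean of 7 proximal tubule marker genes (Lrp2, Cubn, Slc34a1, Slc22a6, Slc22a8, Gatm and Miox) form the rich side, and the 4 arrays with the lower mean form the poor side, so all 8 arrays of the series are used. The rich arrays were wild-type replicates 3 and 4 and TBC1D4-deficient replicates 2 and 4. The poor arrays were TBC1D4-deficient replicates 1 and 3 and wild-type replicates 1 and 2. The sides were therefore selected on measured values of the same arrays. Every difference between them is a description without a test, whichever gene it concerns.

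All animals were male C57/Bl6 mice, 8 weeks old, either TBC1D4-deficient (4 arrays) or wild-type for TBC1D4 (4 arrays). Both groups also carried the PV-EGFP transgene, in which the parvalbumin promoter drives EGFP. Parvalbumin marks the early DCT, so the fluorescent fragments collected on the large-object sorter COPAS model that stretch and not the whole DCT. Each 1-colour Affymetrix array was hybridised with cDNA labelled from 100 ng of RNA. The labels do not say that the samples came from separate animals, so p-values measure only the spread between these samples. TBC1D4 is a Rab GTPase-activating protein that controls vesicle traffic downstream of insulin. Tbc1d4 had log2 intensities of 2.483, 2.721, 2.498 and 2.214 in TBC1D4-deficient replicates 1 to 4, and of 6.69, 6.79, 6.58 and 6.94 in wild-type replicates 1 to 4. The genotypes did not overlap, and the difference was -4.27 (95% confidence interval -4.52 to -4.02, limma adjusted p = 6.35e-08).

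The proximal tubule is the first segment after the glomerulus. Its brush border and megalin-cubilin receptors reclaim most of the filtered solute and protein, and its basolateral transporters secrete organic anions and cations. It is also the kidney's main site of gluconeogenesis and of much amino acid, fatty acid and xenobiotic metabolism, programmes that depend on nuclear receptors such as HNF4A. The DCT, in contrast, reabsorbs sodium chloride through the thiazide-sensitive cotransporter encoded by Slc12a3.

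The 7 markers, each centred on its mean over the 8 arrays and then averaged, gave 1 proximal tubule value per array on the log2 scale. In the poor arrays this marker mean was -1.11 in TBC1D4-deficient replicate 1, -0.60 in wild-type replicate 1, -0.26 in wild-type replicate 2 and -0.000105 in TBC1D4-deficient replicate 3. In the rich arrays it was 0.05 in TBC1D4-deficient replicate 4, 0.33 in TBC1D4-deficient replicate 2, 0.73 in wild-type replicate 4 and 0.85 in wild-type replicate 3. The values form a gradient and not 2 clusters, since the gap between the sides was only 0.05, between TBC1D4-deficient replicates 3 and 4. Of the 7 markers, 5 were higher in replicate 4 than in replicate 3, while Lrp2 and Gatm had the opposite order and overlapped between the sides. The side means differed by 0.98, or 1.97-fold, and the highest array exceeded the lowest by 3.90-fold. Across the 8 arrays the markers moved together, with pairwise Pearson correlations of 0.91 to 0.992.

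**Figure D1:**
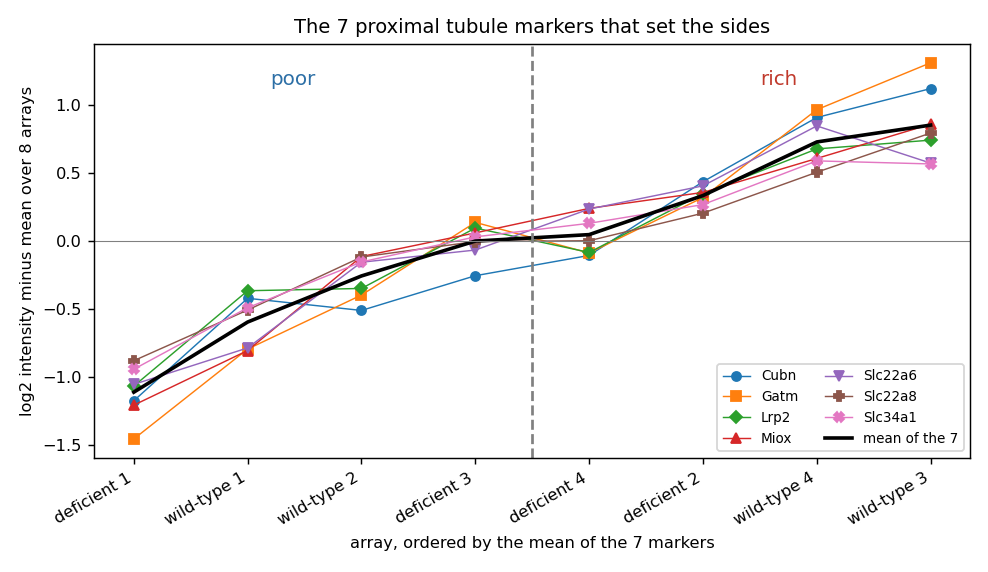
Log2 intensity of the 7 proximal tubule markers in each array, minus that marker's mean over 8 arrays (vertical axis), with arrays ordered by the mean of the 7 (horizontal axis; black line, the mean). The dashed line separates poor from rich arrays, and the black line passes it with a step of only 0.05.

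Lrp2 encodes megalin, the endocytic receptor of the brush border. Below, the values of a gene are listed in order of the marker mean: for the poor arrays TBC1D4-deficient replicate 1, wild-type replicate 1, wild-type replicate 2 and TBC1D4-deficient replicate 3, and for the rich arrays TBC1D4-deficient replicate 4, TBC1D4-deficient replicate 2, wild-type replicate 4 and wild-type replicate 3. In that order Lrp2 was at 6.10, 6.80, 6.82 and 7.26 in the poor arrays and at 7.08, 7.51, 7.84 and 7.91 in the rich arrays. Miox, the renal myo-inositol oxygenase, was at 7.06, 7.46, 8.15 and 8.33 and then at 8.51, 8.62, 8.87 and 9.12. Both climbed along the same order of arrays, with Miox clear of overlap and Lrp2 not.

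The marker mean overlapped widely between the genotypes. Its mean was 0.18 with an SD of 0.72 over the wild-type arrays (n = 4) and -0.18 with an SD of 0.64 over the TBC1D4-deficient arrays (n = 4). The difference was -0.36 (exact 2-sided permutation test over 70 assignments, p = 0.486, smallest possible p 0.0286). The same values set the sides, each known to hold 2 arrays of each genotype, so a full separation of the genotypes was excluded beforehand. Nothing is concluded from this p. Each side holds 2 arrays of each genotype, and 2 arrays from each of the sample numbers 5 to 8 and 9 to 12 in the labels. A second number of unstated meaning is not balanced. It falls into 2 ranges, and the lower one holds 3 poor arrays and 1 rich array, the upper one 1 poor array and 3 rich arrays. It is not balanced by genotype either. The lower range holds 3 TBC1D4-deficient arrays and 1 wild-type array, the upper range 1 TBC1D4-deficient array and 3 wild-type arrays. Within the lower range the 7 markers had a median difference of 0.49 between the sides, and within the upper range of 1.24. The part of this number in the results below was not tested. In bulk RNA, more proximal tubule cells and more RNA per such cell cannot be told apart.

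A gene was counted as higher when its lowest rich array exceeded its highest poor array and the side means differed by at least 1.5-fold (0.58 on the log2 scale). Lower is the reverse. Of 18775 genes, the markers left out, 115 were higher (0.613%) and 3 were lower (0.016%). These shares come from the contrast that set the sides, and nothing is read from them. Without the fold limit the counts were 427 and 269, and without the limit on overlap 180 and 17. Leaving out the near-equal TBC1D4-deficient replicates 3 and 4 gave 222 higher and 12 lower genes, among them all 115 and all 3. A gene without overlap stays so when arrays are left out, so only the fold limit could have removed any of these. Of the 115, 40 belong to lists of proximal tubule genes and 74 to none of the 29 lists used.

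**Figure D2:**
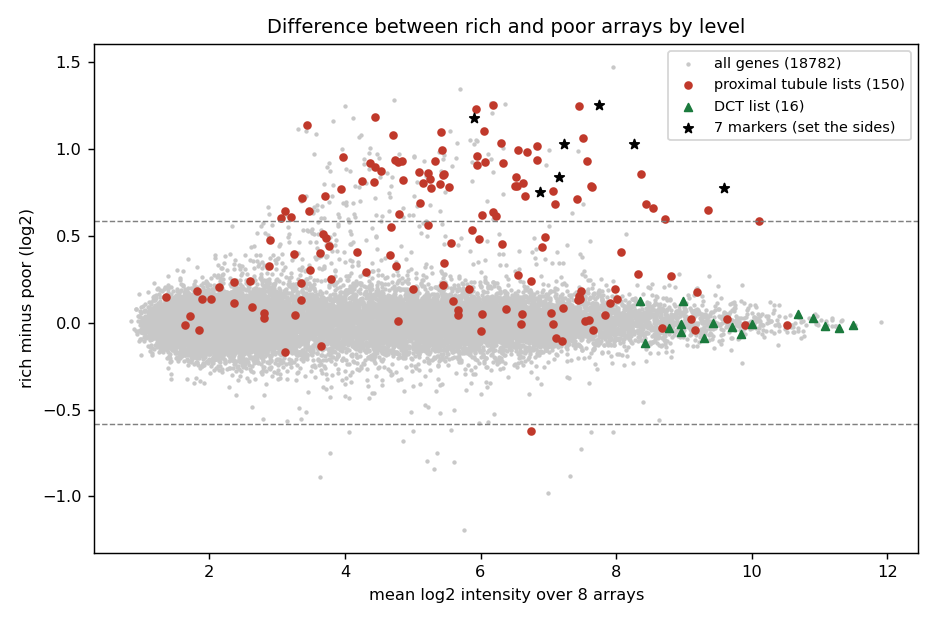
Difference between the mean log2 intensity of the 4 rich and the 4 poor arrays (vertical axis) against the mean log2 intensity over 8 arrays (horizontal axis), 1 point per gene. Red points are proximal tubule list genes, green triangles DCT list genes, stars the 7 markers that set the sides, and dashed lines the 1.5-fold limit. The green triangles stay between -0.11 and 0.13.

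Among the 115 genes the difference ran from 0.60 to 1.47 with a median of 0.88, and the fold from 1.52 to 2.78. The genes just inside the limit were Cyp4b1 (0.599), Nfia (0.601) and Treh (0.602), and those just outside, without overlap, were St8sia6 (0.574), Sectm1b (0.556) and Ace (0.552). The median difference was 1.08 between the wild-type arrays of the 2 sides and 0.68 between the TBC1D4-deficient arrays, and 105 of the 115 were larger in wild-type. Over all 18775 genes these medians were 0.001 and -0.001, and the share of all genes larger in wild-type is not given here. By sample number the medians of the 115 were 0.57 for 5 to 8 and 1.16 for 9 to 12, and by the second number 0.56 for the lower and 1.07 for the upper range. The 7 markers that set the sides had the same order, with medians of 1.18 in wild-type, 0.77 in TBC1D4-deficient, 0.51 in 5 to 8 and 1.47 in 9 to 12. Of the 115, 23 had a mean log2 intensity below 4, where a fold on an array can be understated. For 6 genes a second probe set was measured, and none of these 6 had a difference below 0.

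The gene with the largest difference was Keg1, kidney expressed gene 1, a relative of the glycine acyltransferases. Its log2 intensity was 6.41, 6.40, 8.12 and 7.93 in the poor arrays and 8.28, 8.42, 9.03 and 9.03 in the rich arrays. The lowest 2 arrays stood well below the other 6, and the sides did not overlap. The rich mean was 8.69 ± 0.40 and the poor mean 7.22 ± 0.94 (SD, n = 4 each), a 2.78-fold difference with log2 differences of 1.77 within wild-type and 1.17 within TBC1D4-deficient samples.

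Several enzymes were among the 20 largest differences. Aadac, a microsomal esterase, was 2.43-fold higher, Cda, the cytidine deaminase, 2.39-fold, and Hsd3b2, a 3-beta-hydroxysteroid dehydrogenase, 2.38-fold. Acnat2 and Acnat1, which join acyl-CoA to amino acids, were 2.15-fold and 2.12-fold higher. Glyat, the mitochondrial glycine N-acyltransferase, was at 3.37, 4.08, 4.49 and 4.75 in the poor arrays and at 4.78, 5.04, 5.53 and 5.67 in the rich arrays. Glyat followed the marker mean array by array. The pairs Hsd3b2 and Hsd3b3, Acnat1 and Acnat2, Akr1c14 and Akr1c21, Slco1a1 and Slco1a6, and Cyp2j5 and Cyp2j13 are close relatives whose probes may share signal, so each pair is not 2 separate observations.

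Aldh8a1, which oxidises 2-aminomuconic semialdehyde in the kynurenine route of tryptophan breakdown, was at 5.20, 5.02, 5.95 and 5.89 in the poor arrays and at 6.59, 6.44, 7.03 and 7.06 in the rich arrays, 2.40-fold higher. Acmsd, the decarboxylase that turns this route away from NAD synthesis, was 2.12-fold higher, and Kmo, kynurenine 3-monooxygenase, 1.86-fold. Haao, the next dioxygenase, differed by 0.80 on the log2 scale but overlapped between the sides, and Kynu, kynureninase, chosen after its value was seen, differed by 0.14. These genes were not a list of their own, and their shared route was not tested. The remaining large differences included Slc6a13, a GABA and taurine transporter (2.28-fold), Cpn1, the catalytic chain of carboxypeptidase N (2.24-fold), Fabp7, a fatty acid binding protein (2.17-fold), and Akr1c21, a hydroxysteroid dehydrogenase (2.15-fold). Below these came Acot12, an acetyl-CoA thioesterase (2.15-fold), Dao, D-amino acid oxidase (2.14-fold), Cyp2j5, an arachidonic acid epoxygenase (2.09-fold), Them7, of the thioesterase family (2.08-fold), Pecr, a peroxisomal enoyl-CoA reductase (2.07-fold), Xylb, xylulokinase (2.06-fold), and Me1, the cytosolic malic enzyme (2.05-fold).

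Lists of genes with known proximal tubule roles held 150 measured genes beside the markers. Of these, 40 were higher (26.7%), none was lower, 135 had a difference above 0 and the median was 0.48. Over all 18775 genes 115 were higher (0.613%), 9254 had a difference above 0 and the median was -0.001. Another 27 genes of the proximal tubule lists passed 1.5-fold upwards with overlapping sides. The lists differed among themselves, and their order is given by role.

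Transport genes are given first. In apical and basolateral solute transport 6 of 19 genes were higher (median 0.73), in amino acid transport 3 of 11 (0.72) and in organic anion and cation transport 7 of 16 (0.63). Slc5a8, a sodium-coupled monocarboxylate transporter, was 1.90-fold higher, Aqp1, the water channel of the leaky nephron segments, 1.81-fold, and Slc2a2, the basolateral glucose carrier GLUT2, 1.76-fold. Slc13a1, the sodium-sulfate cotransporter, differed most in its list, by 2.38-fold, yet wild-type replicate 1 in the poor side (5.91) exceeded TBC1D4-deficient replicate 4 in the rich side (5.87). Slc22a2, the cation transporter OCT2, was at 5.73, 6.23, 6.53 and 6.80 in the poor arrays and at 7.09, 7.12, 7.57 and 7.56 in the rich arrays. Its luminal partner Slc47a1, the extruder MATE1, was 1.73-fold higher, and the urate carrier Slc22a12 was 1.69-fold higher. All 3 of these cation and urate carriers were clear of overlap.

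One listed transporter went the other way past 1.5-fold. Slc15a2, the peptide transporter PEPT2, was singled out for this after its values were seen. It was at 6.85, 6.62, 7.74 and 7.01 in the poor arrays and at 6.23, 5.66, 7.57 and 6.27 in the rich arrays, a difference of -0.62 with overlapping sides. Its highest values, in wild-type replicates 2 and 4, lay on opposite sides, and its correlation with the marker mean was -0.15.

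Genes of the early S1 and the late S3 segment were both represented. All 4 measured S1 genes passed 1.5-fold with overlapping sides, among them Slc5a2, the low-affinity sodium-glucose cotransporter SGLT2 (0.69), and Slc4a4, the basolateral bicarbonate transporter (0.71). Of 4 S3 genes, Slc7a13, an aspartate and glutamate transporter, and Slc1a1, the glutamate carrier EAAC1, were higher, while Slc5a1, the high-affinity SGLT1, differed by 0.20 and Cyp7b1, an oxysterol hydroxylase, by 0.04. Slc7a13 was at 5.405, 5.66, 5.90 and 6.18 in the poor arrays and at 6.50, 6.66, 7.24 and 6.88 in the rich arrays. Both segments therefore held genes at 1.5-fold or more, and no test of one segment against the other was made.

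Endocytosis and the brush border were mixed. Of 7 endocytosis genes, Folr1, the folate receptor, and Dab2, the megalin adaptor, were higher, with 1.80-fold and 1.55-fold differences. Clcn5, the endosomal chloride-proton exchanger, differed by 0.01 and Fcgrt, the neonatal Fc receptor, by -0.01, and the list median was 0.22. In the brush border list 5 of 18 genes were higher (median 0.35): Alpl, tissue-nonspecific alkaline phosphatase, Mep1a, a meprin subunit, Vil1, villin, Anpep, aminopeptidase N, and Treh, trehalase. Mep1a was at 5.41, 6.18, 6.53 and 6.64 in the poor arrays and at 6.77, 6.90, 7.52 and 7.51 in the rich arrays. Ace, angiotensin converting enzyme, had no overlap but stayed just under the fold limit.

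Metabolic lists were likewise uneven. Amino acid and one-carbon metabolism had 5 of 25 genes higher (median 0.33), with Hgd, the homogentisate dioxygenase, at 1.89-fold and Dao and Glyat as above. Gluconeogenesis and fructose metabolism had all 8 genes above 0 (median 0.63) but only 2 without overlap past the limit, Khk, ketohexokinase, and Slc2a5, the fructose carrier GLUT5. Fbp1, the fructose-1,6-bisphosphatase, was at 6.38, 6.22, 7.16 and 7.54 in the poor arrays and at 7.93, 7.49, 8.44 and 8.45 in the rich arrays. TBC1D4-deficient replicates 3 and 2 overlapped by a small margin there. Pck1, the cytosolic phosphoenolpyruvate carboxykinase, tracked the markers more loosely, with r = 0.65.

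Fatty acid and peroxisomal oxidation had the lowest median of the proximal tubule metabolic lists (0.16), with 2 of 20 genes higher. Those were Acsm2, a medium-chain acyl-CoA synthetase, at 1.91-fold, and Cyp4b1 at 1.52-fold. Cyp4a14, a fatty acid omega-hydroxylase, was at 2.504, 2.928, 2.881 and 3.196 in the poor arrays and at 2.369, 5.291, 3.967 and 4.431 in the rich arrays. Its lowest value was in a rich array, TBC1D4-deficient replicate 4. Enzymes of mitochondrial beta-oxidation, chosen after their values were seen, stood level: Hadh, hydroxyacyl-CoA dehydrogenase, differed by -0.01, Acadm, the medium-chain dehydrogenase, by 0.02, and Cpt1a, the carnitine palmitoyltransferase, by -0.01. Hadh ranged only from 10.48 to 10.68 over the 8 arrays.

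In xenobiotic, steroid and vitamin D metabolism 7 of 19 genes were higher (median 0.65). Cyp2e1 was 1.81-fold and Fmo1, a flavin monooxygenase, 1.92-fold higher. Ugt3a1, a glycosyltransferase, differed by 1.23 with TBC1D4-deficient replicate 3 (5.94) above replicate 4 (5.78). Cyp27b1 and Cyp24a1, which make and break down active vitamin D and were chosen after their values were seen, differed by 0.11 and 0.04.

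**Figure D3:**
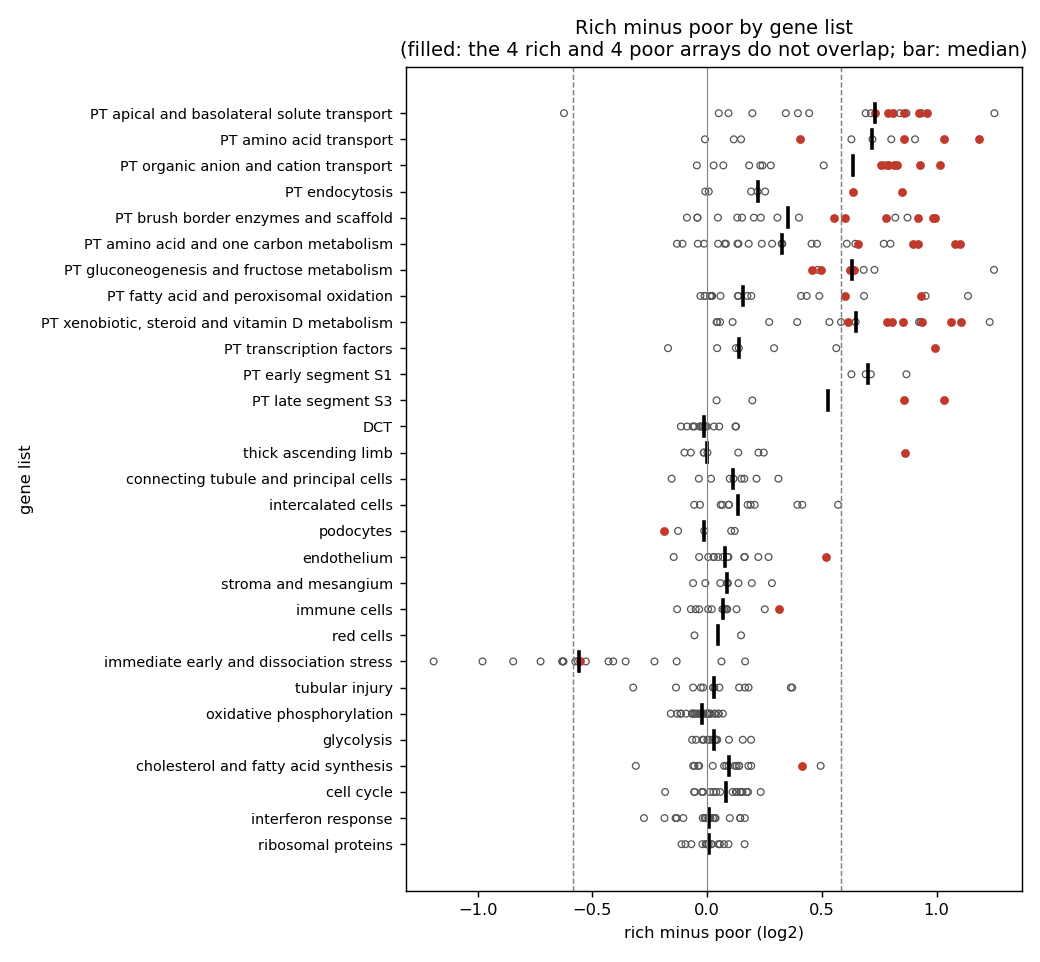
Rich minus poor difference in mean log2 intensity (horizontal axis) for every measured gene of each list (vertical axis), the 7 markers left out. Filled points are genes whose 4 rich and 4 poor arrays do not overlap, black bars the list medians and dashed lines the 1.5-fold limit in each direction. Proximal tubule (PT) lists lie mostly to the right, the DCT list is narrow around 0 and the immediate early list lies to the left.

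Of 7 listed transcription factors, Hnf4a, a nuclear receptor required for proximal tubule identity, was the only one counted as higher. It was at 5.48, 5.70, 6.57 and 6.45 in the poor arrays and at 6.59, 7.00, 7.14 and 7.45 in the rich arrays, 1.99-fold higher. Wild-type replicate 2, at 6.57, and TBC1D4-deficient replicate 4, at 6.59, nearly met, so the absence of overlap is narrow. Maf differed by 0.56, Nr1h4, the bile acid receptor FXR, by 0.29, Hnf4g by 0.14, Rxra by 0.13, Ppara by 0.04 and Cebpd by -0.17.

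Promoters of the higher genes were searched for the letters CAAAGTCCA, an HNF4 recognition sequence. Both strands were read, from 250 bases before to 50 bases after each start site in the RefSeq annotation (GRCm38.p6). Promoters were found for 98 of the 115 genes. The letters occurred in 4 of the 98 (4.08%), Aadat, Hsd3b3, Nat8 and Treh, against 77 of 14717 genes (0.523%). The estrogen-related receptor letters TCAAGGTCA occurred in 0 of 98 against 0.333% of all genes. Neither of the 2 lower genes with a promoter held either set of letters. Another set of letters was also searched and is not reported here, so these shares are not the whole search. A match is a description of the letters and not a binding site. The sequences with HNF4 letters are shown 5′ to 3′ on the gene's strand, to set them beside the values of these genes. Capitals mark the match, which lies on the opposite strand in all 4. For Aadat (chr8:60505874-60506123, plus strand) and Treh (chr9:44672983-44673232, plus strand) the 250 bases before the start are given, with the match beginning at position -72 and -71 from it. For Nat8 (chr6:85832258-85832287, minus strand) and Hsd3b3 (chr3:98763105-98763134, minus strand) the match begins at base 3 and base 5 of the transcript, and 30 bases around it are given.
Aadat: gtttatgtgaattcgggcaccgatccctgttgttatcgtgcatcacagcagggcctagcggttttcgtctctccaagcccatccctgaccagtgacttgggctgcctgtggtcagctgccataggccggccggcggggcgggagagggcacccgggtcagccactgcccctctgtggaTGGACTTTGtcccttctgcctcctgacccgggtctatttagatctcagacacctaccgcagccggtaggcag
Treh: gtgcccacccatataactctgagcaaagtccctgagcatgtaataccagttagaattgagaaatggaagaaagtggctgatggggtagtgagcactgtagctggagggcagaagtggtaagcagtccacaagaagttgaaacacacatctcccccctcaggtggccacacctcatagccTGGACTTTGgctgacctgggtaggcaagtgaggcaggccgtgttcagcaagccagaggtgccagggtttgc
Nat8: caagctcaggTGGACTTTGgctccctgcct
Hsd3b3: tcactgaaagTGGACTTTGaagcttccagc
Aadat, the kynurenine and aminoadipate aminotransferase, was at 3.84, 3.58, 3.77 and 4.12 in the poor arrays and at 4.37, 4.73, 5.18 and 4.69 in the rich arrays, 1.89-fold higher. Treh was at 2.56, 2.64, 2.79 and 3.03 and then at 3.37, 3.17, 3.75 and 3.14, all at the dim end of the scale. Nat8, a cysteine-conjugate acetyltransferase, was 1.53-fold higher and Hsd3b3 1.92-fold. In all 4 genes wild-type replicate 4 exceeded wild-type replicate 3, the reverse of their order by marker mean. The mean over all proximal tubule list genes had the same order, 0.42 against 0.38, so it is not particular to these 4.

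Correlation with the marker mean over the 8 arrays gives a second description, without cutting the gradient. The points share the 8 arrays and their common scaling, and no p is attached. A Pearson r of at least 0.9 was found for 239 of 18775 genes (1.27%), and an r of at most -0.9 for 24 (0.128%). The second count is unstable, at 45 to 115 when any 1 of the 8 arrays was left out. Of the 115 higher genes 97 reached 0.9, with a range of 0.748 to 0.998 and a median of 0.958. The highest values belonged to Glyat (0.998), Slc6a20b, an imino acid transporter (0.995), Enpp6, a choline-specific phosphodiesterase (0.995), Kcnj15, the potassium channel Kir4.2 of the basolateral membrane (0.994), and Fads2, the delta-6 fatty acid desaturase (0.994). Pecr, Hsd3b3, Tkfc, the triokinase of fructose metabolism, Slc47a1 and Fads3 followed, at 0.990 to 0.993. Kcnj15 was at 4.99, 5.65, 5.90 and 6.17 in the poor arrays and at 6.24, 6.51, 6.89 and 6.85 in the rich arrays. Slc6a20b and Fads2 overlapped between the sides only through the near-equal TBC1D4-deficient replicates 3 and 4, so the count of higher genes leaves out genes that follow the markers most closely. Without the 2 arrays farthest from the median of the marker mean, r was 0.998 for Glyat, 0.998 for Kcnj15 and 0.980 for Tkfc.

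**Figure D4:**
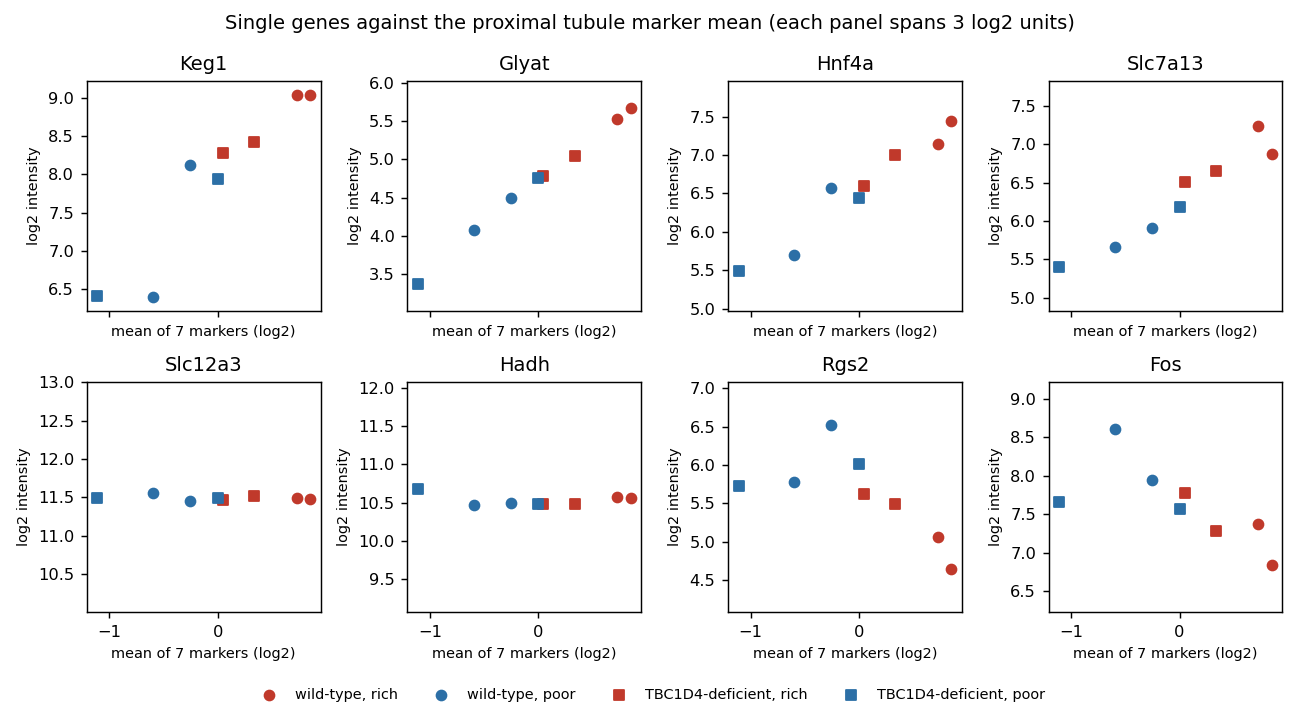
Log2 intensity of 8 genes (vertical axes, each spanning 3 units) against the mean of the 7 proximal tubule markers (horizontal axes), 1 point per array, with red for rich, blue for poor, circles for wild-type and squares for TBC1D4-deficient. Keg1, Glyat, Hnf4a and Slc7a13 climb with the marker mean, Slc12a3 and Hadh are flat, and Rgs2 and Fos descend with wider scatter.

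The slope against the marker mean compares genes on the same log2 scale, where 1 means that a gene changes as much as the markers do. It was 1.48 for Keg1, 1.14 for Glyat, 1.29 for Ugt3a1 and 0.92 for Slc7a13, and its median over the 115 genes was 0.80. Tkfc had a slope of 0.45 despite an r of 0.991. A low slope with a high r describes a gene that follows the markers but over a smaller range.

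Genes that followed the markers downwards did so over small ranges. The 10 lowest correlations, from -0.959 to -0.915, belonged to Zfp54, Gna13, Trappc3l, Mapkapk3, Ppp3r2, Neu4, Lox, Afdn, Cnpy1 and Exoc6b. Zfp54, a zinc finger gene, was at 4.79, 4.73, 4.70 and 4.62 in the poor arrays and at 4.64, 4.65, 4.59 and 4.59 in the rich arrays. Exoc6b, of the exocyst complex, differed by -0.17 and Gna13, a G protein alpha subunit, by -0.05. The largest difference among the 10 was that of Cnpy1, at -0.28, so none came near 1.5-fold. Ppp3r2 and Lox lay below 2 on the log2 scale, at the dim end of the table.

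Only 3 genes were counted as lower. Rgs2, a regulator of G protein signalling that responds quickly to stimulation, was at 5.72, 5.78, 6.52 and 6.01 in the poor arrays and at 5.63, 5.49, 5.07 and 4.65 in the rich arrays. Phxr4, whose role is not stated here, was at 5.16, 5.15, 5.29 and 5.19 and then at 4.70, 4.79, 4.29 and 4.28. Snord14e, a small nucleolar RNA that falls outside the rule for named genes and was chosen after its values were seen, was at 7.33, 8.53, 7.51 and 7.64 and then at 7.15, 7.18, 6.76 and 6.41. The differences were -0.80 for Rgs2, -0.68 for Phxr4 and -0.88 for Snord14e. In the TBC1D4-deficient arrays alone they were -0.31, -0.43 and -0.32, each under 1.5-fold, and in the wild-type arrays -1.29, -0.93 and -1.44.

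Immediate early genes, which are induced within minutes of stimulation or of tissue dissociation, moved in the same direction as these 3. Of 18 measured, 16 had a difference below 0 and 7 passed 1.5-fold downwards, all 7 with overlapping sides, so none was counted as lower. Over all 18775 genes 9521 had a difference below 0 and 17 passed 1.5-fold downwards. The list median was -0.56, against -0.001 for all genes. Atf3, a stress-induced transcription factor, was at 5.22, 7.95, 6.27 and 5.94 in the poor arrays and at 5.61, 5.60, 4.62 and 4.79 in the rich arrays. Fos was at 7.66, 8.61, 7.94 and 7.57 and then at 7.77, 7.28, 7.37 and 6.84. Nr4a1, an orphan nuclear receptor, differed by -0.98, Fosb by -0.85 and Jun by -0.73. Egr2, at -0.56, was the single gene of the list without overlap.

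The difference in immediate early genes was seen in the wild-type arrays. The list mean, each gene centred over the 8 arrays, was 0.88, 0.28, -0.54 and -0.41 in wild-type replicates 1 to 4, where replicates 1 and 2 are poor and 3 and 4 rich. In TBC1D4-deficient replicates 1 to 4 it was -0.12, -0.09, -0.01 and 0.02, without separation of the sides. The list median between the sides was -1.06 within wild-type and 0.03 within TBC1D4-deficient samples, and the difference between the genotypes was not tested. Without wild-type replicate 1, the array with the highest list mean, the median was -0.30. Within the lower range of the second number, whose only rich array is TBC1D4-deficient replicate 4, it was -0.04. Within the upper range, whose only poor array is wild-type replicate 1, it was -1.26. The value of the upper range therefore rests on that same array and is not a separate observation. The proximal tubule lists together had a median of 0.66 within wild-type and 0.28 within TBC1D4-deficient samples, positive in both.

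**Figure D5:**
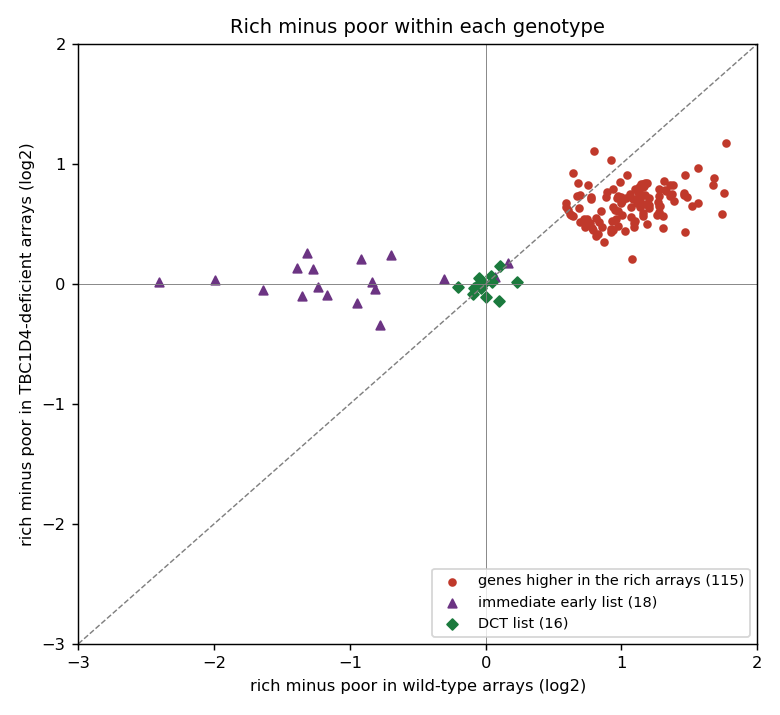
Rich minus poor difference in mean log2 intensity between the 2 rich and 2 poor wild-type arrays (horizontal axis) and between the 2 rich and 2 poor TBC1D4-deficient arrays (vertical axis), 1 point per gene, with the dashed line at equal differences. The 115 higher genes are positive on both axes by selection, the DCT list stays near 0 on both, and the immediate early list extends to -2.40 in wild-type while staying near 0 in TBC1D4-deficient arrays.

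The DCT genes, the material that was sorted for, differed little. Slc12a3 was at 11.49, 11.56, 11.45 and 11.50 in the poor arrays and at 11.47, 11.51, 11.50 and 11.47 in the rich arrays. Of 16 DCT genes none was higher or lower, and the differences ran from -0.11 for Emx1 to 0.13 for Bsnd, the barttin chloride channel subunit, with a median of -0.02. Pvalb, whose promoter drives the sorted EGFP, differed by -0.02, Calb1, calbindin-D28K, by -0.02, and Trpm6, the magnesium channel, by -0.09. Taken singly, each of the 16 genes also overlapped between the sides, while the marker mean differed by 1.97-fold. The DCT list was much brighter, with a median log2 level of 9.58 against 5.67 for the proximal tubule lists. Whether the DCT content of the arrays was equal was not tested.

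Markers of neighbouring segments and other cell types were measured by the same rule. Of 9 thick ascending limb genes 1 was higher, Cldn10, a claudin also expressed outside that segment, with r = 0.983 to the marker mean, while Slc12a1, the NKCC2 cotransporter, differed by 0.00 and Umod, uromodulin, by -0.01. None of 9 connecting tubule and principal cell genes, 12 intercalated cell genes, 5 podocyte genes, 14 endothelial genes, 8 stromal genes, 14 immune genes or 2 red cell genes was higher or lower, with list medians from -0.01 to 0.14. The largest difference among intercalated cell genes was that of Aqp6, an intracellular aquaporin, at 0.57 with r = 0.381, and among endothelial genes that of Cdh5, VE-cadherin, at 0.52 without overlap. The intercalated cell list mean ranged from -0.10 to 0.32 in the rich and from -0.23 to 0.19 in the poor arrays, and the endothelial list mean from -0.14 to 0.21 and from -0.35 to 0.10. The thick ascending limb list mean, which includes Cldn10, did not overlap, at -0.01 to 0.22 in the rich and -0.14 to -0.02 in the poor arrays. The median r with the marker mean was 0.52 for endothelial and 0.55 for stromal genes, against -0.02 over all genes. It was 0.10 to 0.36 in the other lists of this paragraph. The part of these cell types in the results was not tested.

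The gradient was also the main axis of variation between the arrays. The first principal component of the 18775 genes without the markers held 27.97% of the variance and correlated with the marker mean at r = 0.98 (8 arrays). With the proximal tubule lists and the 115 higher genes also left out, the first component held 22.7% (r = 0.614) and the second 18.6% (r = 0.714).

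Genotype is the contrast that did not set the sides, so it can be tested over all probe sets. Over 23039 probe sets, limma with Benjamini-Hochberg adjustment called 1 (0.00434%), Tbc1d4, and 667 had an unadjusted p below 0.05 (2.9%). None of the 115 higher genes passed, and none reached an unadjusted p below 0.05 (smallest limma adjusted p 0.99991). Their selection forced a spread within each genotype, since each side holds arrays of both genotypes. The test therefore cannot decide whether genotype affects these 115. Values were lower in TBC1D4-deficient arrays for 111 of the 115, with a median difference of -0.25, in the direction of the marker mean's own -0.36. These genes were selected on the sides which that mean set, and the share of all genes lower in TBC1D4-deficient arrays is not given here. With the marker mean as a covariate limma again called 1 probe set (0.00434%), Tbc1d4, with 726 at an unadjusted p below 0.05 (3.15%). The median difference of the 115 was then 0.04, with 39 below 0. For Hnf4a the genotype difference went from -0.33 (95% confidence interval -1.20 to 0.53) to 0.03 (-0.23 to 0.30). The interval was narrower once the marker mean was held constant. Hnf4a and the other higher genes were selected on the sides which that mean set. The narrower interval and the smaller differences are therefore not separate evidence. Clrn3, clarin 3 (-0.14), and Slc17a3, a phosphate and urate transporter (0.23), were the only 2 of the 115 with an unadjusted p below 0.05 in that fit, and neither passed the adjustment (limma adjusted p 0.999). Genotype is also unbalanced over the 2 ranges of the second number. With the range as a block limma again called 1 probe set. The part of this number in the genotype differences of the 115 was not tested.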

How the data were processed

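The authors deposited 1 linear intensity per probe set and array, for 28371 probe sets. The submitters' processing notes name Affymetrix Power Tools, with version, summarisation, normalization and genome build not given in the sources used here. All arrays were already on a common scale (median intensities 8.41 to 9.03, correlations between arrays 0.993 to 0.997), so a shift common to nearly all genes could not be seen. There is no detection call, and for arrays their number limits the precision.

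Log2 was taken with no pseudocount, further normalization or filter. In the platform annotation 21158 probe sets had 1 symbol, 1881 several and 5332 none. Each of 18782 genes was read from its brightest probe set of exactly 1 symbol. Genotypes were compared with limma 3.58.1 (R 4.3.3, lmFit and eBayes, 2-sided, Benjamini-Hochberg, threshold 0.05) over 23039 probe sets with a symbol. The rest was computed with pandas 2.3.3 and numpy 2.4.6. The limma script was tested on simulated data.

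The sides, the members and the 29 gene lists (442 symbols, 386 measured) were chosen with earlier results of these data known. Named genes are the 7 markers, Tbc1d4, the 20 largest higher and 15 largest lower differences, the 10 highest and 10 lowest correlations (without predicted genes, Riken clones, receptors of smell, small RNAs and unnamed loci), up to 8 members a list by size, and genes at the fold limit. Others are marked. Alternatives changed the fold limit, level filter, probe set rule, scaling, arrays and covariates.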

Additional observations from a re-analysis of the deposited data

Results flagged for a closer look

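In groups of 4 arrays of one genotype, a list mean was marked when the highest or lowest array lay far from the other 3. Of 122 groups checked 7 met this, where chance alone marks about 1 in 20. TBC1D4-deficient replicate 1 lay below the other TBC1D4-deficient arrays in 6 of the 7. Its mean, each gene centred over 8 arrays on the log2 scale, was -0.50 for all proximal tubule lists together, -0.68 for solute transport, -0.52 for the brush border, -0.41 for amino acid and one-carbon metabolism, -0.68 for xenobiotic, steroid and vitamin D metabolism and -0.91 for the S1 segment. It is also the array with the lowest marker mean, and leaving it out gave 90 higher genes in place of 115. Wild-type replicate 3 was highest in the stroma and mesangium list, at 0.15.

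For 2 lists the sides moved in opposite directions in the genotypes, with every array of a side on its side of the other. With 2 arrays per side in each genotype such an order also arises by chance. The number of lists expected to show it is not given here, so nothing is concluded from these 2. The rich minus poor difference in wild-type exceeded that in TBC1D4-deficient arrays by 0.12 for oxidative phosphorylation genes and by 0.12 for ribosomal protein genes. The difference between the genotypes was not tested.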

How the results depend on the processing

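The counts of higher and lower genes depend on the limits and arrays. Against 115 higher and 3 lower genes, a fold limit lower than 1.5 gave 174 and 20, a limit of 2-fold gave 24 and 0, no fold limit 427 and 269, and a mean log2 intensity of at least 5 gave 60 higher. Wild-type arrays alone gave 247 and 49, TBC1D4-deficient arrays alone 6 lower, sample numbers 5 to 8 gave 70 and 25, and 9 to 12 gave 248 and 16. A gene without overlap over the 8 arrays has none in fewer, so only the fold limit could drop it. Staying counted in fewer arrays is therefore not separate evidence. All 115 higher genes were still counted in wild-type arrays alone and in 9 to 12. Only 78 of them were in TBC1D4-deficient arrays alone, and 52 in 5 to 8. Of the 3 lower genes 3 were counted in wild-type arrays alone, 0 in TBC1D4-deficient arrays alone, 3 in 5 to 8 and 2 in 9 to 12. Leaving out 1 array at a time gave 90 to 179 higher genes, most without TBC1D4-deficient replicate 3 (179), and 3 to 15 lower genes. The lower count exceeded 1.5 times its value without TBC1D4-deficient replicates 1 (15), 2 (8), 3 (6) or 4 (11) or wild-type replicates 3 (5) or 4 (8). The 6 arrays away from the boundary, an alternative chosen after seeing the data, gave 222 and 12. With fewer arrays an absence of overlap is easier to meet. Genes with r of at least 0.9 numbered 239, 238 to 296 with 1 array left out, 127 after each side was centred and 386 in the 6 arrays. Genes with r of at most -0.9 numbered 24, but 45 (without wild-type replicate 3) to 115 (without wild-type replicate 4) with 1 array left out, above 1.5 times for each of the 8 arrays. They numbered 196 without the 2 arrays farthest from the median and 136 in the 6 arrays.

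Of 368 alternative values for the named genes 358 moved by less than 1 SD and 10 by more, with none of opposite sign. Of 480 list medians 458 moved by less than that spread and 21 by more. The immediate early median turned positive, to 0.0264, in TBC1D4-deficient arrays alone, and the cause was not tested. The median over all proximal tubule lists stayed between 0.28 and 0.68. The genotype call was 1, Tbc1d4, in every setting run, and the marker mean difference by genotype ranged from -0.62 to -0.06 with 1 array left out.

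Replicate numbers pair the samples in name only. Same-numbered arrays correlated at 0.40, -0.19, 0.04 and 0.01 in their deviations from the genotype means, so the block was not used as the main fit. With the replicate block limma still called 1 probe set, and the marker mean difference stayed at -0.36 (exact paired permutation test, p = 0.375, smallest possible 0.125). The limit given for the unpaired permutation test, that these values set the sides, holds for the paired test too.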
